A study of Mus musculus with 6 samples.

Results

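The 7 genes described here are the 5 receptors for sphingosine 1-phosphate (S1pr1 to S1pr5), the oxysterol receptor gene Gpr183 (also called EBI2) and Ch25h, the cholesterol 25-hydroxylase gene that starts the synthesis of the GPR183 ligand. They were chosen by symbol out of the 23420 genes in the deposited tables, and all 7 were found. The transcriptome of B cells was measured by RNA-seq after 4 hours of culture with or without CL097, an imidazoquinoline agonist of the RNA sensor TLR7. Bead-purified splenic B cells came from 3 MRL/lpr mice, 5 to 7 weeks old and male, that carried wild-type TLR7 and lacked TLR9 (TLR9-/-). MRL/lpr is a lupus-prone strain with a defect of the death receptor Fas, so the Fas defect and the loss of TLR9 were shared by both groups. The CL097 group was cultured with 5 µg/ml CL097 and the unstimulated group without it, each with 3 libraries, and both were kept at the same cell density. B cells had been enriched by removing cells that carry CD43, CD4, CD8, CD11b, CD11c or Gr-1, so follicular and marginal zone B cells were measured together. Values are given as CPM, a measure of reads relative to the library, computed back from the deposited log2 CPM. The deposited values had also been normalized to a common distribution across libraries. They are listed for the libraries numbered 1, 2 and 3, in that order.

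Sphingosine 1-phosphate (S1P) is abundant in blood and lymph and scarce inside lymphoid tissue, and lymphocytes follow this gradient outwards through S1PR1. S1PR1 and S1PR3 also hold marginal zone B cells at the edge of the splenic follicle in mice, whereas S1PR2 confines germinal centre B cells to the follicle centre. GPR183 responds to oxysterols made by CH25H and CYP7B1, and it draws activated B cells towards the outer follicle.

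The promoters of these genes are shown first because they are the sequences nearest to the measured transcripts, for the gene that fell the most (S1pr4), the other receptor called lower that has an entry (S1pr3), the gene that rose (Gpr183), and the pair that shares an infrequent motif (S1pr2 and Ch25h). RefSeq sequences on GRCm38.p6, from 250 bases before to 50 bases after the start site, were matched by symbol for 6 of the 7 genes. S1pr1 was not among them. Each is written 5′ to 3′ on the strand of its gene, and capitals mark a match to CACCC or TGACGTCA on either strand, so that a CACCC match on the other strand reads GGGTG.
S1pr4, chr10:81500088-81500387, minus strand: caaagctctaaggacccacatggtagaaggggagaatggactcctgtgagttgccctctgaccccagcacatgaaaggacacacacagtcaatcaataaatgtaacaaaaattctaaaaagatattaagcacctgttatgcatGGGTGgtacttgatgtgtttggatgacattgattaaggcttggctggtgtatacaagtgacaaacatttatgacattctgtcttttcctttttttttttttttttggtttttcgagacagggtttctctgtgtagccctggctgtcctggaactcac
S1pr3, chr13:51408368-51408667, plus strand: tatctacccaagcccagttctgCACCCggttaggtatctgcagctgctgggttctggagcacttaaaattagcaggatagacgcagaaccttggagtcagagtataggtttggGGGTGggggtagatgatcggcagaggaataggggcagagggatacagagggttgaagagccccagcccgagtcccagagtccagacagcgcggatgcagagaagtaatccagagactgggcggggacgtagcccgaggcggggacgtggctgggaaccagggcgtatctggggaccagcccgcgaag
Gpr183, chr14:121965144-121965443, minus strand: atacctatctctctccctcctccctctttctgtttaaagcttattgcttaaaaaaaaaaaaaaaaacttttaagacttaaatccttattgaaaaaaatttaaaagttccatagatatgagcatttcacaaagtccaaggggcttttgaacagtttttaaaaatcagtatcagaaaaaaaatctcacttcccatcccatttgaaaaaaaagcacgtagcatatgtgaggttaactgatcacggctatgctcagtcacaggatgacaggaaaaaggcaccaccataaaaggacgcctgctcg
S1pr2, chr9:20976744-20977043, minus strand: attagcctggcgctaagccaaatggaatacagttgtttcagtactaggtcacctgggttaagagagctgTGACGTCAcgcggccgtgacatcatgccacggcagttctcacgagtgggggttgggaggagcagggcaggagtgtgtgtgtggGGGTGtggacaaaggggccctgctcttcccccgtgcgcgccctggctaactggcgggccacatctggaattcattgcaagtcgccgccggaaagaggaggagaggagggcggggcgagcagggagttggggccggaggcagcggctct
Ch25h, chr19:34475099-34475398, minus strand: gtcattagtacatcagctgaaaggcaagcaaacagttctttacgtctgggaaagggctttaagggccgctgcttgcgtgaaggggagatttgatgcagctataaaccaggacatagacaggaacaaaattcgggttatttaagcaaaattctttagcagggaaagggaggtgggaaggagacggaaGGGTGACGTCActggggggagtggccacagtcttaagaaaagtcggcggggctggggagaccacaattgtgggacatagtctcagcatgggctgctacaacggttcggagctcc
The CACCC box, the core letters bound by Krüppel-like factors, was present in the S1pr4, S1pr3, S1pr2 and Ch25h windows and in that of S1pr5, and it was not among the letters of the Gpr183 window. As 57.5% of 32851 promoter windows held this box, its presence separates few genes. TGACGTCA, the letters of the cAMP response element, stood in the S1pr2 and Ch25h windows, against 1.79% of all windows, and in Ch25h it overlapped the CACCC box. None of the 6 windows held TGTTTAC (the FOXO element, in 3.65% of all windows), GAAANNGAA (the core of the interferon-stimulated response element, 8.56%), TGANTCA (AP-1, 7.81%), CACGTG (E-box, 7.15%), CCGGAAG (ETS, 8.86%) or the NF-kB consensus (8.46%).

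The data divided the 7 genes into a group that fell, 1 gene that rose and a pair at the edge of detection. S1pr1, S1pr3 and S1pr4 were lower after CL097, Gpr183 was higher, S1pr2 was lower within each number without passing the test, and S1pr5 and Ch25h lay too low to be tested. Genes with at least 0.5 CPM in at least 3 libraries were tested in 1 limma model over all genes, with p-values adjusted by the Benjamini-Hochberg method. Calls needed an adjusted p under 0.05 together with a log2 fold change beyond 0.5 in either direction. Of 11844 genes tested, 47.6% were called, 24% higher and 23.6% lower, so a call by itself sets a gene little apart in this experiment. Among the 7 genes, 5 were tested, of which 1 was called higher, 3 lower and 1 neither. The libraries of the 2 groups did not overlap for 4 of these 5 genes, as for 65.8% of all genes tested. Libraries held 10906 to 10997 genes at or above 1 CPM, and because the deposited values had been normalized to a common distribution library depth is unknown and changes are relative to the other genes.

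**Figure D1:**
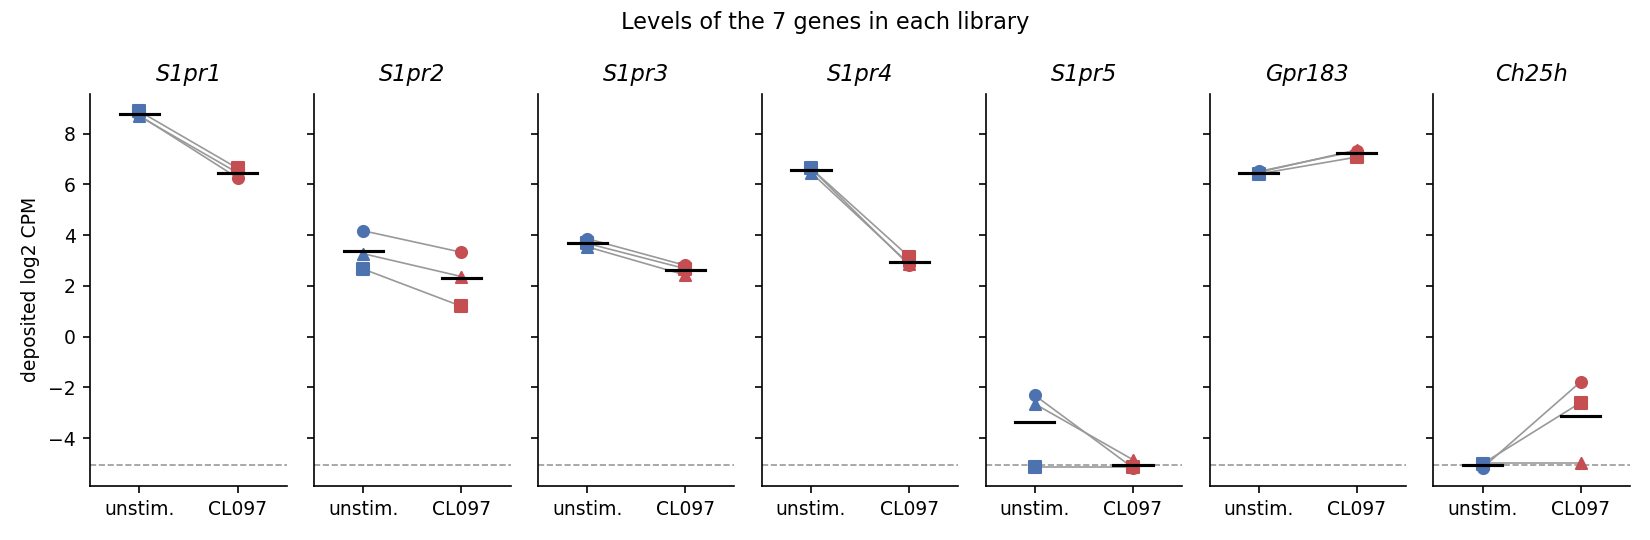
Deposited log2 CPM (y axis) of the 7 genes in the 3 unstimulated (blue) and the 3 CL097 libraries (red). Circles, squares and triangles mark numbers 1, 2 and 3, grey lines join the libraries of 1 number, and black bars are group means. The dashed line is the most frequent value among genes with 1 value in all libraries. S1pr1 and S1pr4 fell far beyond their spread, and S1pr2 was lower in each of the 3 numbers without the groups separating. S1pr5 and Ch25h lay near the dashed line in most libraries.

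S1pr1, the egress receptor, was the most abundant of the 7 genes in unstimulated B cells and remained well expressed after CL097. Its level was 422, 471 and 411 CPM in the unstimulated libraries and 76.4, 99.3 and 87.9 CPM in the CL097 libraries. Every CL097 library thus lay far below every unstimulated one, and the order of the numbers was not the same in the 2 groups. The mean went from 435 ± 32.4 to 87.8 ± 11.5 CPM (SD, n = 3), 4.97-fold lower (log2 fold change -2.31, SE 0.11, limma adjusted p = 1.74e-06). In unstimulated cells 3.15% of the genes tested had a higher mean CPM than S1pr1, and after CL097 23.6% did. The study named S1pr1 for a difference between receptor genotypes after stimulation, and not for its change with CL097. That comparison rested partly on the CL097 libraries shown here, so the S1pr1 values in them are not independent of that choice. The gene lies at chr3:115710433-115715072 on the minus strand (GRCm38, GENCODE), with 2 exons and no overlapping gene. In bulk samples such as these, fewer cells that express a gene and less RNA per cell cannot be told apart.

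S1pr4, a receptor found mainly on lymphoid and other blood cells, fell the most of the 7 genes. Unstimulated libraries held 99.1, 99.4 and 88.5 CPM and CL097 libraries 7.07, 8.85 and 7.31 CPM. The 3 values of each group lay close together, with no overlap. The mean went from 95.7 ± 6.19 to 7.74 ± 0.968 CPM (SD, n = 3), 12.4-fold lower (log2 fold change -3.63, SE 0.12, limma adjusted p = 8.66e-07). S1pr4 ranked 34 from the largest fall among the 11844 genes tested, where S1pr1 ranked 281. S1pr4 is a single-exon gene at chr10:81497747-81500132 on the minus strand.

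S1pr3, which in mice contributes to the placement of marginal zone B cells, was expressed at a low level and fell about as far in each number. Its level was 14.6, 12.8 and 11.6 CPM without and 7.01, 6.41 and 5.38 CPM with CL097. In both groups number 1 was the highest and number 3 the lowest, and CL097 was the lower library in 3 of 3 numbers. The mean went from 13.0 ± 1.47 to 6.26 ± 0.825 CPM (SD, n = 3), 2.08-fold lower (log2 fold change -1.06, SE 0.18, limma adjusted p = 0.00112). The gene lies at chr13:51408639-51422797 on the plus strand and overlaps the lincRNA gene Gm32834 on the other strand. Whether the counting used strand is not given in the sources used here, and without strand reads of the 2 genes cannot be told apart. The 7 marginal zone B cell markers, of which 2 were called higher and 4 lower, summed to 411 to 546 CPM without and 550 to 597 CPM with CL097. Endothelial cells also express S1PR3, and of 7 endothelial and stromal markers Tek, Col1a1 and Col3a1 were under 0.5 CPM in every library, 1 was called lower, and the sum went from 273 to 290 CPM to 212 to 230 CPM. Pecam1, which B cells can also express, made up nearly all of that sum, and the part of either marker list in the S1pr3 result was not tested.

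S1pr2, the receptor that confines germinal centre B cells, differed more between numbers than between groups. It stood at 18.0, 6.33 and 9.64 CPM in unstimulated and 10.0, 2.29 and 5.17 CPM in CL097 libraries. Number 1 was the highest and number 2 the lowest in both groups, the groups overlapped, and CL097 was the lower library within every number. The means were 11.3 ± 6.03 and 5.83 ± 3.91 CPM (SD, n = 3), with a log2 fold change of -1.07 (SE 0.56) that did not pass the test (limma adjusted p = 0.134). With the replicate number as a block, the SE was 0.18 and S1pr2 was called lower (limma adjusted p = 0.00167), in a fit that called 25.8% of all genes tested lower and brought the genes called lower to 4 of the 5. It was also called without the CL097 library of number 1 (log2 fold change -1.59, limma adjusted p = 0.0249), and its log2 fold change was -0.52 without that of number 2 and -0.67 without the unstimulated library of number 1. The 7 germinal centre markers together, of which 2 were called higher and 1 lower, summed to 349 to 389 CPM and 304 to 1114 CPM, and their part in the S1pr2 values was not tested.

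S1pr5, known from the egress of natural killer cells, was close to absent from these B cells. The deposited values were 0.201, 0.0285 and 0.159 CPM without CL097 and 0.0278, 0.0285 and 0.0346 CPM with it. Number 2 without CL097 and all 3 CL097 libraries were listed near 0.0301 CPM. This was the most frequent value among the 5485 genes that held 1 value in all 6 libraries. It is called the lowest value here, although the bottom of the scale shifted by gene and number. The gene, at chr9:21242912-21248443, overlaps Gm48303 on the other strand. No fold is given, because such values mark the bottom of the scale and not a measured level. Of 7 natural killer cell markers, 4 were tested and none of these was called (limma, 0 of the 4 at an unadjusted p under 0.05 and 1 lower with the replicate block), Ncr1 and Gzma were under 0.5 CPM in every library, and the sum was 6.42 to 8.50 CPM without and 4.55 to 8.58 CPM with CL097.

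The sizes of the changes were set against one another over the 10 pairs of tested genes. The log2 ratio of 2 genes was compared between the groups by an exact two-sided permutation test that does not use the pairing by number and that, with 3 libraries against 3, gives no p below 0.1 (0.125 after Benjamini-Hochberg adjustment over the 10 pairs), so no pair could pass 0.05 in it. The fall of S1pr4 was larger than that of S1pr1 by 1.24 to 1.37 on the log2 scale, in 3 of 3 numbers (mean 1.32, exact permutation p = 0.1). The fall of S1pr1 was larger than that of S1pr3 by 1.11 to 1.41 in 3 of 3 numbers (mean difference -1.26, exact permutation p = 0.1). S1pr2 and S1pr3 differed by -0.47 to 0.22, with changing sign (mean -0.02, exact permutation p = 1), an interval that does not show that they changed alike. The log2 ratio of S1pr1 to S1pr2 overlapped between the groups (exact permutation p = 0.3), although S1pr1 had the larger fall in 3 of 3 numbers, by 0.78 to 1.62. In 8 of the 10 pairs the log2 ratio did not overlap between the groups. These pairs share genes, so they are not independent of one another. The share among pairs of all genes tested was not computed. Taken singly, 65.8% of all genes tested did not overlap between the groups, so the count by itself sets these pairs little apart.

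**Figure D2:**
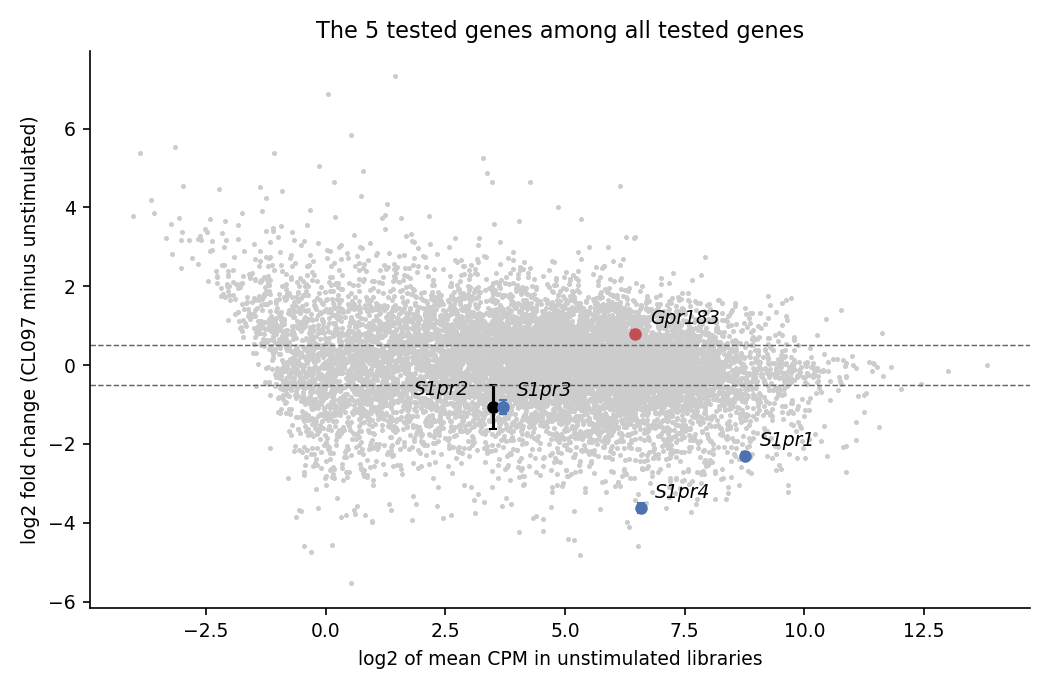
Log2 fold change (CL097 minus unstimulated, y axis) against the log2 of the mean CPM in unstimulated libraries (x axis) for the 11844 genes tested (grey), with the 5 tested genes in blue (called lower), red (called higher) and black (not called). Bars are the SE from limma and dashed lines lie at log2 fold changes of -0.5 and 0.5. S1pr4 sits at the lower edge of the cloud and S1pr1 among the abundant genes with large falls, while Gpr183 lies within the cloud.

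To set the receptors beside one another, levels were divided by the length of the principal GENCODE transcript. In unstimulated cells the mean level per kb of transcript was 143 ± 10.6 CPM for S1pr1, and the next receptor, S1pr4, held 40.1 ± 2.6 CPM per kb (SD, n = 3). Below these came Gpr183, S1pr3 with 2.91 ± 0.329 CPM per kb and S1pr2 with 1.77 ± 0.943 CPM per kb, and the last 2 overlapped between libraries. With CL097 Gpr183 led at 56.2 ± 5.76 CPM per kb, ahead of S1pr1 at 28.8 ± 3.77, S1pr4 at 3.25 ± 0.406, S1pr3 at 1.40 ± 0.185 and S1pr2 at 0.912 ± 0.612 CPM per kb. S1pr3 and S1pr2 again overlapped. The order of S1pr1 and Gpr183 was therefore exchanged, in every library. The summed level of the 5 S1P receptors went from 188 ± 12.1 to 34.4 ± 3.49 CPM per kb, 5.45-fold lower. S1pr1 made up 76.1% ± 1.51 of this sum before and 83.6% ± 2.83 after CL097, whereas the share of S1pr4 went from 21.4% ± 0.811 to 9.42% ± 0.361 (SD, n = 3). S1pr2 and S1pr3 held 0.955% and 1.55% of the sum before and 2.78% and 4.12% after. The shares of S1pr1, S1pr3 and S1pr4 did not overlap between the groups, and that of S1pr2 did. They rest on the assumption that reads came from the principal transcript.

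**Figure D3:**
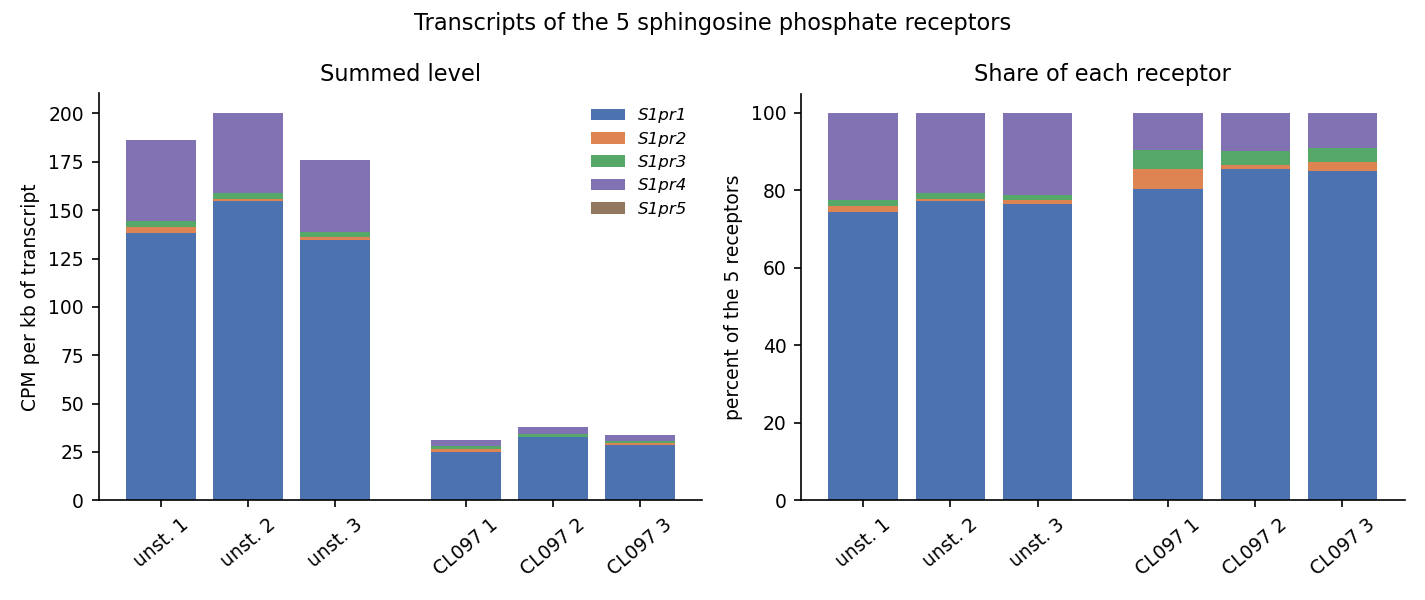
Levels of the 5 S1P receptor genes in each library, stacked. Left, CPM per kb of transcript, which summed to 176 to 200 without and 31.2 to 38.1 with CL097. Right, the percent of that sum held by each gene, in which the S1pr4 share shrank in each CL097 library.

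Gpr183 was the only one of the 5 tested genes that rose. It stood at 91.1, 85.3 and 89.1 CPM in the unstimulated libraries and at 160, 135 and 164 CPM in the CL097 libraries. Number 2 was the lowest in both groups and the groups did not overlap. The mean went from 88.5 ± 2.98 to 153 ± 15.7 CPM (SD, n = 3), 1.72-fold higher (log2 fold change 0.79, SE 0.09, limma adjusted p = 0.000154). Of all genes tested 19.7% had a larger log2 fold change, so the rise was of a common size here. Gpr183 lies at chr14:121952551-121965195 on the minus strand, inside the gene Ubac2 (chr14:121878620-122021034, plus strand), and none of the 15 annotated Ubac2 exons overlaps an exon of Gpr183. Ubac2 changed the other way, from 61.2 ± 4.84 to 28.3 ± 4.64 CPM (SD, n = 3; log2 fold change -1.12, SE 0.13, limma adjusted p = 0.000169).

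Ch25h, the enzyme gene of the GPR183 ligand, was at the bottom of the scale in unstimulated cells. It was listed near the lowest value, at 0.0278, 0.0311 and 0.0318 CPM, without CL097 and at 0.292, 0.165 and 0.0318 CPM with it. Numbers 1 and 2 thus lay above the lowest value after CL097 and number 3 did not. At this level no fold and no test is given. Macrophages can express Ch25h, and the 8 monocyte and macrophage markers, none of them called by limma, with 1 at an unadjusted p under 0.05, and 4 called lower with the replicate block, summed to 113 to 442 CPM without and 84.4 to 237 CPM with CL097. The gene has a single exon at chr19:34473778-34475164 and overlaps the noncoding gene Gm26902 on the other strand.

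By a fixed rule, the 3 genes with at least 10 CPM whose log2 profile over the 6 libraries lay nearest to that of each called gene were sought among 8170 genes, as a description. Those nearest to S1pr1 were Ikzf3, which encodes Aiolos, with a root mean square difference of 0.04 on the log2 scale, and Evi2b and Pou2af1 with 0.05 and 0.06. Nearest to S1pr4 were Arhgef18, Sbk1 and the integrin gene Itgb7 (0.11, 0.12 and 0.12). S1pr3 had Ttc7, Tesk2 and Lonp2 (0.06, 0.06 and 0.07), and Gpr183 had Cks2, Etv6 and Psma5 (0.01, 0.05 and 0.05).

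Genes that make, move and degrade S1P did not share a direction. Of 17 tested, 3 were called higher, 5 lower and 9 neither, with a median log2 fold change of 0.03, against 0.00 over all genes. Spns2, an S1P exporter, fell from 22.8, 21.6 and 18.7 CPM to 1.27, 1.56 and 1.60 CPM, a log2 fold change of -3.83 (SE 0.20, limma adjusted p = 2.44e-06), beside -3.63 for S1pr4. The genes of the kinases that form S1P, Sphk1 and Sphk2, were not called. Sphk1 was low, at 0.419, 0.449 and 0.891 CPM without and 0.264, 2.04 and 5.78 CPM with CL097 (log2 fold change 1.41). It was thus lower with CL097 in number 1 and higher in numbers 2 and 3. Sphk2 stood at 50.9 to 58.3 CPM without and 62.8 to 70.8 CPM with CL097. The S1P lyase gene Sgpl1 was not called either, at 228 to 251 and 227 to 265 CPM. Among lipid phosphatases Sgpp2 (log2 fold change -1.04) and Ppap2b (now Plpp3, -1.59) were lower. The ceramidase genes Acer2 (1.43) and Acer3 (1.29) were higher while the acid ceramidase gene Asah1 (-0.63) and the ceramide synthase gene Cers4 (-1.30) were lower. Mfsd2b, the S1P exporter of red cells and platelets, was called higher, at 1.57, 4.98 and 3.81 CPM without and 3.93, 16.7 and 19.4 CPM with CL097 (log2 fold change 1.81, SE 0.65, limma adjusted p = 0.043). The 7 erythroid markers, none of the 5 tested called (limma, 0 at an unadjusted p under 0.05 and 3 higher with the replicate block) and Hba-a1 and Hba-a2 under 0.5 CPM in every library, summed to 205 and 210 CPM in number 1 and to 4137 to 7436 CPM in numbers 2 and 3, and their part in the Mfsd2b result was not tested. Single libraries set these counts: without the CL097 library of number 1, 5 genes were called higher, and without that of number 3, 1, while 3 were called lower without the unstimulated library of number 3 or the CL097 library of number 2.

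Among genes of oxysterol metabolism and of the liver X receptors (LXR), the nuclear oxysterol receptors, 13 of 15 were tested, of which 3 were called higher, 5 lower and 5 neither (median log2 fold change -0.30). Cyp7b1, the partner of Ch25h in making the GPR183 ligand, was listed near the lowest value in 5 libraries and at 0.123 CPM in the CL097 library of number 1. Hsd3b7, which ends the ligand's action by metabolising it, was higher, at 0.677, 1.36 and 1.34 CPM without and 3.13, 2.54 and 2.13 CPM with CL097 (log2 fold change 1.26, SE 0.37, limma adjusted p = 0.0189). Cyp39a1, a 24-hydroxycholesterol hydroxylase gene, was lower (-2.78, SE 0.23), and so was Cyp27a1 (-1.04, SE 0.36), while the sulfotransferase gene Sult2b1 was higher (0.93, SE 0.28). Of the LXR targets, the cholesterol exporter gene Abca1 fell from 347, 408 and 444 CPM to 31.2, 57.4 and 63.1 CPM (log2 fold change -3.04, SE 0.25, limma adjusted p = 2.12e-05) and Mylip fell as well (-1.74, SE 0.19), whereas Lpcat3 rose (0.60, SE 0.12). Abcg1, also an LXR target, was not called and had a log2 fold change of 0.01, and Nr1h2, the gene of LXR beta, lay just past the threshold (-0.50, SE 0.09). The count called higher was 1 without the CL097 library of number 2, and the count called lower was 3 without the unstimulated library of number 2 or the CL097 library of number 1 or 3.

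Genes that couple these receptors to the cell, or control their transcription and surface level, were mostly lower where they were called. Of 27 tested, 1 was called higher, 17 lower and 9 neither, with a median log2 fold change of -0.73. The 1 that rose was Cd69, whose protein binds S1PR1 and removes it from the surface, from 59.8, 72.5 and 83.9 CPM to 259, 363 and 390 CPM (log2 fold change 2.22, SE 0.18, limma adjusted p = 1.86e-05). Klf2, which drives S1pr1 transcription in T cells of mice, fell from 166, 193 and 201 CPM to 59.1, 63.0 and 62.6 CPM (log2 fold change -1.59, SE 0.09, limma adjusted p = 3.84e-06), and Foxo1, which acts upstream of Klf2, was also lower (-0.63, SE 0.07). Cd69 rose and S1pr1 and Klf2 fell in every number, and whether these changes are linked was not tested. The receptor kinase genes Adrbk1 (GRK2, log2 fold change -1.16) and Grk6 (-1.31), the arrestin gene Arrb2 (-1.47) and the endocytosis genes Dnm2 (-0.94) and Clta (-0.55) were lower. Lower too were the G protein genes Gnai2 (-0.54) and Gna13 (-0.61), the exchange factor gene Arhgef1 (-1.69) that acts below S1PR2 and G alpha 13, and the migration genes Dock2 (-0.73) and Rac2 (-0.77). Of the RGS genes, whose products shorten G protein signals, Rgs14 fell by 3.61, Rgs2 by 2.40, Rgs16 by 1.54, Rgs18 by 1.20 and Rgs13 by 0.94 on the log2 scale. Rgs13 was not called without the unstimulated library of number 2 or 3 or the CL097 library of number 1 or 2, nor Rgs16 without the unstimulated library of number 3. Rgs1 was not called, at 37.9, 70.9 and 110 CPM without and 36.6, 68.2 and 107 CPM with CL097, an order of numbers that was the same in both groups.

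**Figure D4:**
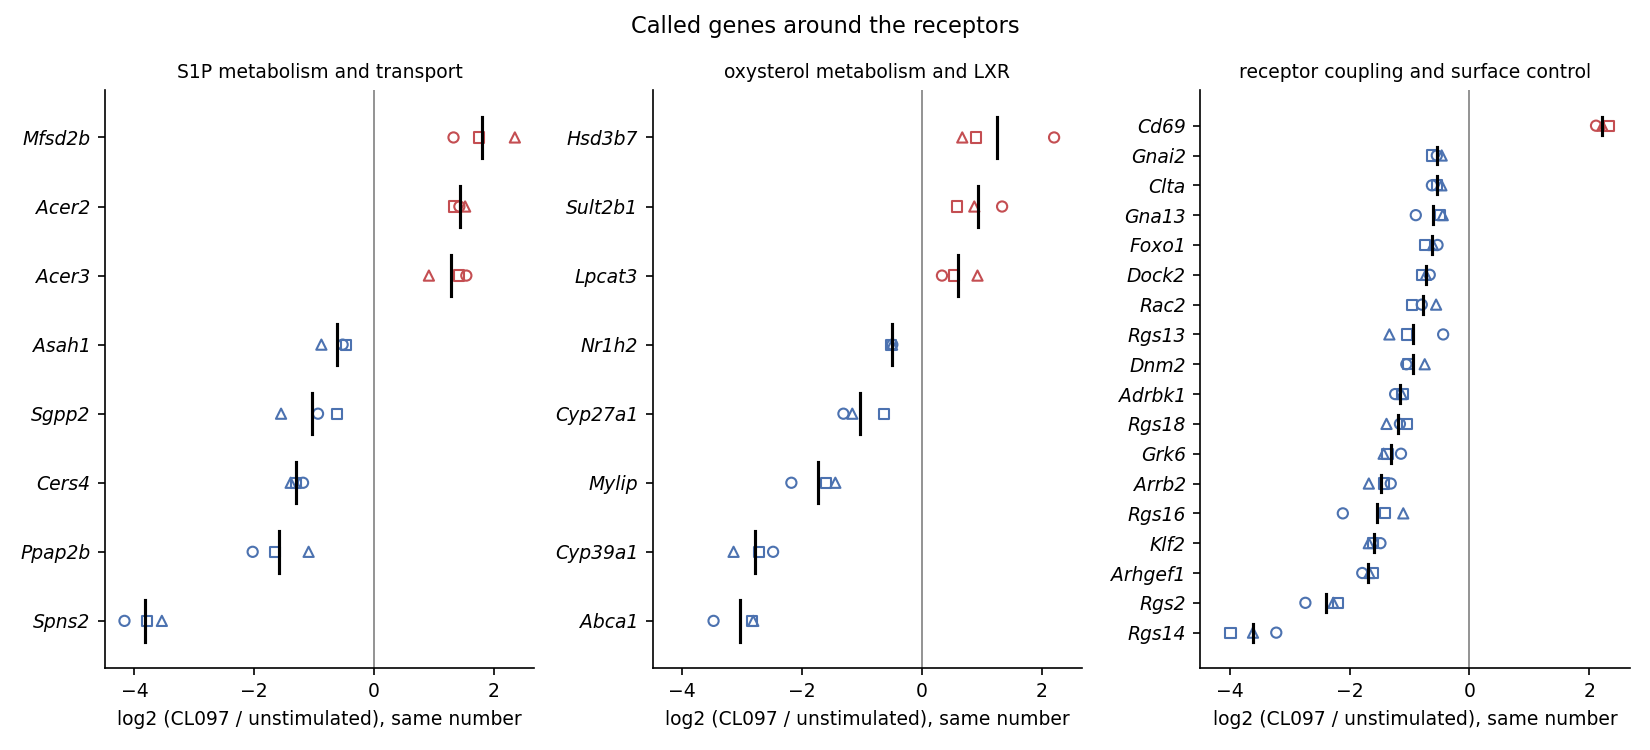
Log2 ratio of CL097 to unstimulated within number 1 (circles), 2 (squares) and 3 (triangles) on the x axis for the called genes of 3 lists, with the limma log2 fold change as a black line. Red genes were called higher and blue genes lower. Spns2, Abca1 and Rgs14 had log2 fold changes below -3, and Cd69 was the 1 gene of its list to the right of 0.

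Receptors for other lysophospholipids were also mostly lower where they were called. Of 12, 9 were tested, of which 1 was called higher, 6 lower and 2 neither (median log2 fold change -0.80). Gpr34, a lysophosphatidylserine receptor gene, fell from 9.64, 2.92 and 3.91 CPM to 0.143, 0.541 and 0.454 CPM (log2 fold change -3.87, SE 0.64, limma adjusted p = 0.00106). P2ry10 (-0.89, SE 0.13), its neighbour family member A630033H20Rik (now P2ry10b, -1.66, SE 0.20) and the lysophosphatidic acid receptor gene Lpar5 (-1.10, SE 0.29) were lower too. The 1 gene called higher was Gpr132 (0.57), which was not called without the unstimulated library of number 2 or 3 or the CL097 library of number 1. Of 11 further receptors and adhesion molecules that place B cells, 4 were called higher and 7 lower (median log2 fold change -1.37). Among the lower genes were Itgb7 (-3.66, SE 0.16), the cannabinoid receptor gene Cnr2 (-2.47, SE 0.15) and Ccr6 (-2.47, SE 0.18).

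B cell identity was checked with 7 markers, all of them tested, 4 called lower and 3 not called. They summed to 6183 to 7018 CPM without and 2706 to 3241 CPM with CL097, led by falls of Cd22 (-2.36), Cd79b (-2.09) and Cd79a (-2.06), so that B cell genes other than the receptors moved with S1pr1 and S1pr4. Follicular markers, which include receptors that changed above, summed to 3113 to 3385 and 4447 to 4740 CPM. T cell markers summed to 50.8 to 71.6 and 53.3 to 94.1 CPM, with Cd3e and Cd3d under 0.5 CPM in every library and 2 of 5 tested markers, Cd8a and Cd8b1, called higher. Lck, which was not called, made up most of that sum, at 43.4 to 67.2 CPM without and 45.1 to 88.3 CPM with CL097. Neutrophil markers, none of the 5 tested called by limma (0 at an unadjusted p under 0.05, 1 higher and 2 lower with the replicate block), summed to 4.25 to 13.6 and 4.83 to 15.3 CPM, and dendritic cell markers to 29.4 to 49.3 and 75.7 to 93.7 CPM, a rise made up mostly of Zbtb46 (8.22 to 47.7 CPM, log2 fold change 2.54, SE 0.19). Of the 6 dendritic cell markers 4 were tested, and the other 3, Flt3 (0.44), Siglech (0.00) and Itgax (-0.88), were not called, Itgax being called lower with the replicate block. The part of these cells in the receptor values was not tested. Of 16 interferon-stimulated genes, 2 were called lower, Stat2 (-0.85, SE 0.20) among them, and 14 did not pass the test, and with the replicate block 2 were called higher and 8 lower.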

How the data were processed

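RNA was measured in 6 libraries of B cells, 3 unstimulated and 3 with CL097, grouped by the labels. According to the study's methods and the submitters' processing notes, the authors aligned reads to mm10 with STAR 2.6.1a, counted them per gene with featureCounts (Subread 2.0.1) and quantile normalized them with voom in limma. The deposited values are log2 CPM per gene. Read counts and depth are unknown, so no counting interval or count test is given. Of 17935 genes that were not constant, 2655 to 3108 held exactly the same deposited log2 CPM in both libraries of 1 number, against 347 to 396 across numbers, and the lowest value shifted by gene and number. Such a shared shift leaves differences within a number as they were but alters the spread between numbers.

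Genes with at least 0.5 CPM in at least 3 libraries were kept (11844). limma 3.58.1 in R 4.3.3 was fitted on the deposited log2 values with group as the only term and a mean-variance trend, with two-sided p-values adjusted by Benjamini-Hochberg over all genes tested. No pseudocount was added. CPM means and SD were computed after raising 2 to the deposited value, and folds from the log2 fold change. The fit was tested on simulated data. Labels do not say which mouse each number stands for, so p-values measure the spread between these libraries. Same-numbered libraries deviated together (correlations of 0.568, 0.326 and 0.458 over genes), from the data and not the labels. Differences were therefore also given within numbers, and a fit with the replicate number as a block was run as an alternative. The main fit and the permutation test did not use this pairing.

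The 7 genes and all lists were chosen with earlier results of these data known. All 7 are named with their values; beyond them, every called gene of the S1P, oxysterol and coupling lists and up to 4 called genes of each other list with the largest log2 fold change are named, except items that are not reported here, with genes named after their values were seen where the text shows a gene that was not called. Aliases were used for older symbols in the tables. Positions are from GENCODE M21 and promoters from RefSeq, both on GRCm38. The alternatives were 3 scalings, 2 filters, log2(CPM + 1), 2 variance models, the block, and leaving out each library or number 1.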

Additional observations from a re-analysis of the deposited data

How the results depend on the processing

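S1pr1, S1pr3, S1pr4 and Gpr183 kept their calls and directions under all 17 alternatives, with log2 fold changes of -2.41 to -2.22 (highest adjusted p = 0.000116), -1.14 to -0.95 (0.00647), -3.73 to -3.47 (8.20e-05) and 0.73 to 0.87 (0.00162). S1pr2 was called under 4 of them: with the replicate block (log2 fold change -1.07, limma adjusted p = 0.00167), without the CL097 library of number 1 (-1.59, limma adjusted p = 0.0249), without number 1 in both groups (-1.18, limma adjusted p = 0.0316) and without number 1 with the replicate block (-1.18, limma adjusted p = 0.000184), and its adjusted p ranged up to 0.393. With the replicate block 3057 genes were called lower, against 2799 without it, and the block changed no call of the other 4 tested genes. Of 76 genes compared, 61 kept their call under every alternative in which they were tested (16 of the 17 for Cd8b1), 14 lost it under at least 1 and none reversed. Those that lost it were Cyp27a1 (in 8 alternatives), Mfsd2b (7), Ppap2b, Nr1h2 and Rgs13 (6 each), Sgpp2 (5), Sult2b1 (4), Hsd3b7 (3), Acer2, Gna13 and Rgs16 (2 each), and Lpcat3, Clta and Cd8a (1 each). The cause was not tested. The depth is unknown, and S1pr5 and Ch25h lay too low for a test.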
